A study of Homo sapiens with 6 samples.

Results

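The snoRNA host genes described here are *GAS5*, *SNHG1*, *SNHG5*, *SNHG6*, *SNHG7*, *SNHG8*, *SNHG12*, *SNHG15*, *SNHG16* and *ZFAS1*, which carry small nucleolar RNAs (snoRNAs) in their introns and were taken from the expression tables by their symbols. They are 10 of the 58735 genes listed, and all 10 passed the expression filter that left 14179 genes for testing. RNA was sequenced from H2452, an established human pleural mesothelioma line, to compare cells with and without an intact *NF2* gene, which encodes the tumour suppressor merlin of the Hippo pathway. The control group (sgCtrl, genotype WT, 3 libraries) received a scrambled guide RNA and the knockout group (sg*NF2*-1, 3 libraries) received a guide against *NF2*. Both groups carried the same lentiviral vector, in which an SFFV promoter drives Cas9-FLAG and mCherry, and both were sorted for mCherry, with no cloning of single cells described in the methods. The labels do not say whether the replicates were separate cultures, so the p-values below measure only the spread between these libraries, which may be technical.

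A snoRNA host gene is transcribed and spliced like a messenger RNA gene, and its snoRNAs are released from the excised introns. Box C/D snoRNAs guide ribose methylation and box H/ACA snoRNAs guide pseudouridylation of ribosomal and other RNAs. The spliced exons of many hosts start with a tract of pyrimidines, as ribosomal protein messengers do (terminal oligopyrimidine, TOP), hold no long reading frame, and are degraded by nonsense-mediated decay once ribosomes translate them. Their level therefore depends both on transcription and on translation-coupled decay, and *GAS5* was named for its accumulation in growth-arrested cells.

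The snoRNAs below are shown because they are what these genes are best known for, while the values below are those of the host genes, counted over all their annotated exon bases. The sequences are those of the GENCODE release 29 transcripts (GRCh38), written as DNA from the start to the end of the RNA. Capitals mark box C (ATGATGA or GTGATGA) and box D (CTGA) in the C/D RNAs, and the ACA box near the end of the H/ACA RNAs.
SNORD25, in *SNHG1*, chr11:62855564-62855632, minus strand: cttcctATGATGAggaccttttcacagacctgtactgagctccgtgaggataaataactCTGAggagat
SNORD27, in *SNHG1*, chr11:62855012-62855083, minus strand: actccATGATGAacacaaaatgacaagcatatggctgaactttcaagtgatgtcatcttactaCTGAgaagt
SNORD30, in *SNHG1*, chr11:62853663-62853732, minus strand: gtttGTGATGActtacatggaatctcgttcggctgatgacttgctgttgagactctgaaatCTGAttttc
SNORD50B, in *SNHG5*, chr6:85677589-85677658, minus strand: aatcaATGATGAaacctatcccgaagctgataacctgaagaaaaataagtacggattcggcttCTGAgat
SNORD12B, in *ZFAS1*, chr20:49280319-49280409, plus strand: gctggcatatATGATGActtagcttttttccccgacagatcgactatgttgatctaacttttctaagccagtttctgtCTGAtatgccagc
SNORD12C, in *ZFAS1*, chr20:49278940-49279028, plus strand: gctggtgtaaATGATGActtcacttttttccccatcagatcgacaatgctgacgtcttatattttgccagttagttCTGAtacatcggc
SNORA24, in *SNHG8*, chr4:118279190-118279320, plus strand: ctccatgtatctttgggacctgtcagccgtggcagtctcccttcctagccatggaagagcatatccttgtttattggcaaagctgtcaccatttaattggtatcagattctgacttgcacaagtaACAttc
SNORA9, in *SNHG15*, chr7:44985378-44985510, minus strand: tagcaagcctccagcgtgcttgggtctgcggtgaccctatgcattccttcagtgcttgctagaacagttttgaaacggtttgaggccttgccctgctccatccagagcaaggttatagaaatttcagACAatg

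The sequences around the transcription starts are shown because a pyrimidine start is the feature that TOP hosts share. They come from the RefSeq promoter table (GRCh38.p14), in which 8 of the 10 genes were matched and *SNHG6* and *SNHG15* were not. Each window runs from 30 bases before the annotated start to 30 bases from it onwards, and the capitals mark the unbroken run of C and T that begins at the first transcribed base.
*SNHG12*, chr1:28581844-28581903, minus strand: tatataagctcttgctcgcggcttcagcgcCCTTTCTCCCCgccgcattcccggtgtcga
*SNHG5*, chr6:85678704-85678763, minus strand: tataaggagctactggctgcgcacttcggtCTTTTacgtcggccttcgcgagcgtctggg
*ZFAS1*, chr20:49278612-49278671, plus strand: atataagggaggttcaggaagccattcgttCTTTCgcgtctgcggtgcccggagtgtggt
*SNHG7*, chr9:136728155-136728214, minus strand: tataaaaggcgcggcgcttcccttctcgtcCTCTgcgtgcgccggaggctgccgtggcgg
*SNHG1*, chr11:62855856-62855915, minus strand: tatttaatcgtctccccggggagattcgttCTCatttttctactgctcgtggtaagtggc
*SNHG8*, chr4:118278732-118278791, plus strand: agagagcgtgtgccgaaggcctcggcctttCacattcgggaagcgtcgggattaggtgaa
*SNHG16*, chr17:76557734-76557793, plus strand: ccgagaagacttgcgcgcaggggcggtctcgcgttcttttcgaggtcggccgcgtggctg
For *GAS5* the RefSeq start lies 1056 bases upstream of the start that GENCODE gives to 6 of its 29 transcripts, so the first 30 transcribed bases at that GENCODE start are shown in its place.
*GAS5*, chr1:173867960-173867989, minus strand: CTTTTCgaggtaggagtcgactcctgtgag

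At the RefSeq start, a first base C within a run of at least 4 pyrimidines was annotated for 4 of the 8 matched hosts (*SNHG5*, *SNHG7*, *SNHG12* and *ZFAS1*), and for 5.45% of the 35116 promoters of the table. *GAS5* was counted without it there, although its GENCODE start begins with a C and a run of 6 pyrimidines. A C followed by 4 more pyrimidines, starting within 10 bases of the annotated start, was found for 6 of the 8, and for 33.5% of all promoters. The letters TATAA lay 40 to 20 bases before the start in 5 of the 8 hosts, and in 3.82% of all promoters. Over the 300 bases of each promoter, searched on both strands, the E-box letters CACGTG were found in *SNHG7* alone of the 8 (7.26% of all promoters), the TEAD letters GGAATG in *SNHG12* alone (14.03%), and the amino acid response letters TGATGCAAT in 0 of the 8 (0.236%). For *GAS5* these letters were searched around the RefSeq start only, so their presence around its GENCODE start is not known. These matches describe the letters of the windows and were not tested for binding.

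The libraries held 14782423 to 17416463 counts each, and replicates differed beyond counting noise, though less than libraries of different groups. The targeted gene *NF2* had 1025 to 1197 counts in sgCtrl and 590 to 802 in sg*NF2*-1, a log2 fold change of -0.69. Of 10 mesothelial markers, 9 had over 10 counts, *KRT5* had at most 3 in any library, and their summed level was 778 to 873 FPKM (fragments scaled to gene length and library depth) in sgCtrl and 736 to 897 in sg*NF2*-1. Within that sum single markers moved in both directions, the mean FPKM of *KRT7* from 54.6 to 125 and of *MSLN* from 13.5 to 21.1, and that of *KRT19* from 230 to 119, of *PDPN* from 17.4 to 7.11 and of *WT1* from 2.31 to 1.11, and their part in the host results was not tested. Of 6 blood and endothelial markers, 2 (*PECAM1* and *CDH5*) had over 10 counts in a library, the defining blood marker *PTPRC* was at 0 in all 6 libraries, and the summed level was 0.885 to 1.19 FPKM in sgCtrl and 0.320 to 0.473 in sg*NF2*-1. Of the 2 markers over 10 counts, the mean FPKM of *PECAM1* went from 0.771 to 0.157 and that of *CDH5* from 0.140 to 0.182. In such bulk libraries, fewer cells of a kind and less RNA per cell cannot be told apart.

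Of the 10 host transcripts, 9 were higher in the *NF2*-knockout libraries. *SNHG15*, *SNHG1* and *SNHG12* more than doubled, *GAS5*, *SNHG8* and *SNHG16* came close to doubling, and *ZFAS1*, *SNHG5* and *SNHG7* rose less. *SNHG6*, the host of *SNORD87*, was the one whose level did not pass the test. In edgeR's quasi-likelihood test with Benjamini-Hochberg adjustment over all 14179 genes, 9 of 10 hosts rose and 0 fell at the 0.05 level, where 17.7% of all tested genes were higher and 16.6% lower (34.3% in either direction). A log2 fold change above 1 with such an adjusted p was reached by 3 hosts and by 2.26% of all tested genes. Among the 1296 long noncoding genes tested, 7.48% were higher and 10.1% lower. The median log2 fold change of the hosts was 0.92, against -0.00 over all tested genes and -0.05 over the long noncoding ones. The hosts and the lists below were chosen with earlier results of these data known. Their shares and medians therefore describe them and do not test them as groups. The hosts together took 0.0659% to 0.0730% of the counts of each sgCtrl library and 0.112% to 0.127% of those of each sg*NF2*-1 library.

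**Figure D1:**
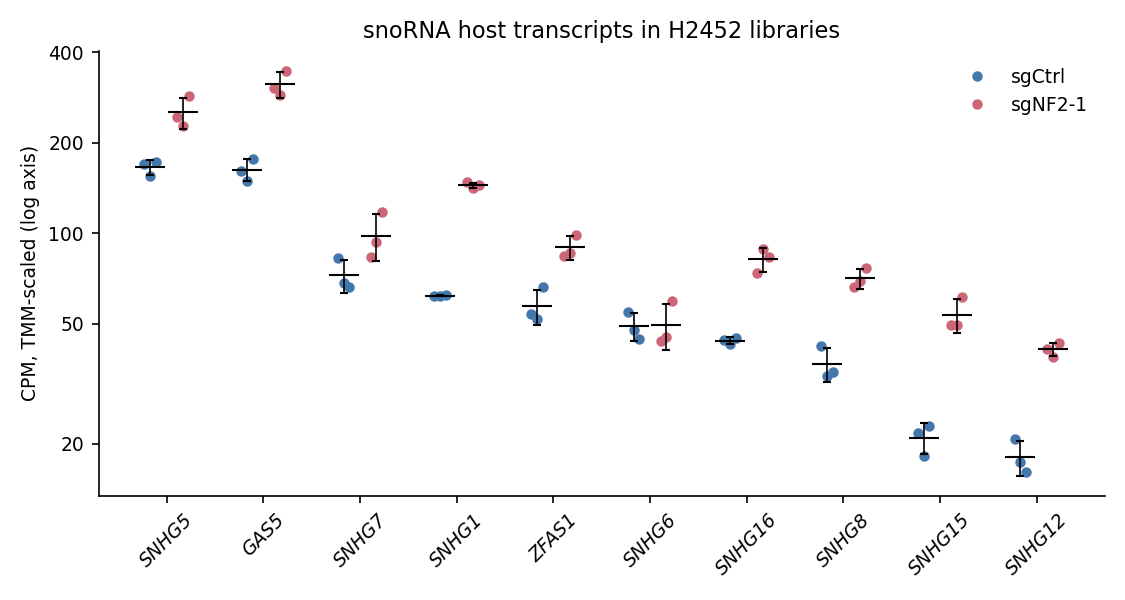
Level of each snoRNA host transcript in every library, as CPM after TMM scaling on a log axis, with the mean and SD of each group of 3 (black). For 9 genes all sg*NF2*-1 points lie above all sgCtrl points, and for *SNHG6* the groups overlap.

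The hosts of box C/D snoRNAs are described first. Levels are counts relative to the library total after TMM scaling (CPM), and fold changes are sg*NF2*-1 relative to sgCtrl. *GAS5* (ENSG00000234741, GRCh38 chromosome 1, 173863900 to 173868882) had 161, 149 and 177 CPM in the sgCtrl libraries and 304, 287 and 346 CPM in the sg*NF2*-1 libraries. The groups were well apart, the lowest knockout library standing above the highest control library. Its mean went from 162 ± 13.7 to 312 ± 30.4 CPM (SD, n = 3), a log2 fold change of 0.94 (standard error 0.09, edgeR adjusted p = 8.98e-09).

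*SNHG1* (ENSG00000255717, chromosome 11, 62851988 to 62855914), first described as the host of the U22 snoRNA, carries 7 snoRNA rows of the table within its span. Its level was 61.7, 61.8 and 62.1 CPM in sgCtrl, and 148, 141 and 144 CPM in the knockout libraries. The replicates were closer to each other than for any other host in both groups relative to their mean, with means of 61.9 ± 0.224 and 144 ± 3.05 CPM (SD, n = 3). The log2 fold change was 1.22 (standard error 0.08, edgeR adjusted p = 2.44e-11).

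*SNHG5* (ENSG00000203875, chromosome 6, 85660950 to 85678748), the host of *SNORD50B*, had 170.0, 155 and 172 CPM in sgCtrl, and 244, 227 and 286 CPM in the knockout libraries. All knockout libraries were above all control libraries, and replicate 3 was the highest. The change was 0.61 on the log2 scale (standard error 0.09, edgeR adjusted p = 7.37e-06), and it was 0.51 without that library.

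*SNHG16* (ENSG00000163597, chromosome 17, 76557766 to 76565348), the host of the *SNORD1* RNAs, had 44.2, 42.7 and 44.9 CPM in sgCtrl, and 73.7, 88.5 and 83.2 CPM in the knockout libraries. Here replicate 2 was the highest of the knockout libraries, and the groups did not overlap. *SNHG16* rose by 0.90 on the log2 scale (standard error 0.09, edgeR adjusted p = 3.73e-08).

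*ZFAS1* (ENSG00000177410, chromosome 20, 49278178 to 49295738), the host of the *SNORD12* RNAs, had 53.9, 51.8 and 66.0 CPM in sgCtrl, and 84.3, 86.0 and 99.0 CPM in the knockout libraries. The third library of either group was its highest, and the groups were apart. Its log2 fold change was 0.65 (standard error 0.10, edgeR adjusted p = 1.30e-05).

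*SNHG6* (ENSG00000245910, chromosome 8, 66921684 to 66926398) had 54.8, 47.7 and 44.5 CPM in sgCtrl, and 43.9, 45.3 and 59.5 CPM in the knockout libraries. The groups overlapped, with both the lowest and the highest value among the knockout libraries. The log2 fold change was 0.01 with a 95% interval of -0.21 to 0.23 (edgeR adjusted p = 0.943, two-sided exact permutation test on CPM p = 0.90). The interval of *SNHG7*, 0.22 to 0.65, overlaps it, and those of the 8 other hosts lie above it.

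The hosts of box H/ACA snoRNAs are *SNHG7*, *SNHG8* and *SNHG15*, and *SNHG12* carries both kinds. *SNHG15* (ENSG00000232956, chromosome 7, 44983023 to 44986961), the host of *SNORA9*, had 21.7, 18.2 and 22.9 CPM in sgCtrl, and 49.6, 49.6 and 61.3 CPM in the knockout libraries. Each knockout library held more than any control library by a wide margin. Its log2 fold change of 1.35 (standard error 0.11, edgeR adjusted p = 1.68e-09) was the largest of the 10 and stood at rank 150 among all 14179 genes ordered from the most increased, and at rank 16 among the 1296 long noncoding ones.

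*SNHG12* (ENSG00000197989, chromosome 1, 28578538 to 28583132), the host of *SNORA16A*, *SNORA44*, *SNORA61* and *SNORD99*, had 20.7, 17.3 and 16.1 CPM in sgCtrl, and 41.3, 38.9 and 43.2 CPM in the knockout libraries. Its control libraries lay far below its knockout libraries, without overlap. Its log2 fold change was 1.19 (standard error 0.11, edgeR adjusted p = 1.25e-08).

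*SNHG8* (ENSG00000269893, chromosome 4, 118278709 to 118279823), the host of *SNORA24*, had 42.3, 33.5 and 34.5 CPM in sgCtrl, and 66.3, 69.5 and 76.8 CPM in the knockout libraries. The first control library was the highest of its group and still below every knockout library. The log2 fold change was 0.95 (standard error 0.10, edgeR adjusted p = 8.01e-08).

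*SNHG7* (ENSG00000233016, chromosome 9, 136721366 to 136728184), the host of the *SNORA17* RNAs, had 83.0, 68.2 and 66.5 CPM in sgCtrl, and 83.5, 93.5 and 118 CPM in the knockout libraries. The highest control library and the lowest knockout library almost met. The log2 fold change was 0.43 (standard error 0.11, edgeR adjusted p = 0.00297), and it was 0.29 (adjusted p = 0.034) without sg*NF2*-1 replicate 3. In the FPKM values its groups overlapped, 18.1 being the highest sgCtrl value and 18.0 the lowest of sg*NF2*-1.

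**Figure D2:**
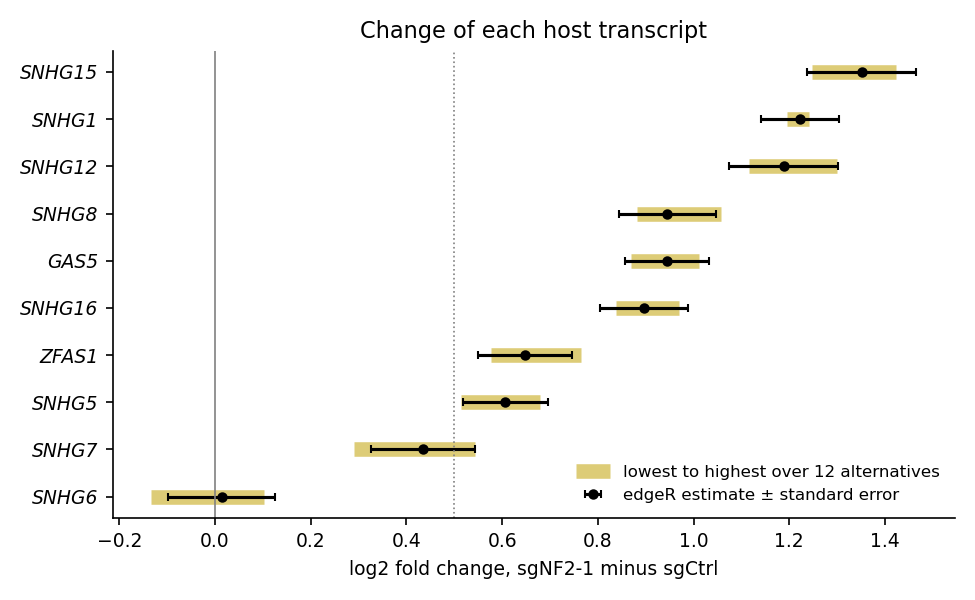
Log2 fold change of each host from edgeR (point, bar = standard error), with the lowest to highest estimate over 12 alternative settings (yellow) and dotted line at 0.5. *SNHG15* has the largest estimate at 1.35 and *SNHG6* the smallest at 0.01, and the yellow band crosses 0 for *SNHG6* and for no other gene.

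With the thresholds of the methods, which require a log2 fold change past 0.5 at p under 0.05, 8 of the 10 hosts were called, all of them higher, where 20% of all tested genes were called (9.22% higher and 10.8% lower, and among long noncoding genes 8.64% higher and 12.8% lower). *SNHG7* passed the p but not the fold limit in this count. The knockout libraries all exceeded the control libraries for 9 of the 10 hosts and for 23.2% of all tested genes. For each of these 9 the two-sided exact permutation test on CPM gave p = 0.10, the smallest that 3 libraries against 3 allow. On the second deposited scale, limma's test of log2(FPKM + 1) with Benjamini-Hochberg adjustment passed 8 of the 10 hosts, where 13.3% of 13038 genes were higher and 13.4% lower. The hosts it did not pass were *SNHG7* (difference 0.39, limma adjusted p = 0.078) and *SNHG6* (difference -0.00, limma adjusted p = 0.98).

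Levels of different hosts can be compared only per length, and the FPKM values give an order on that scale. The length used is that of all annotated exon bases, with those of retained introns and those shared with other genes included. The order therefore also depends on the annotation of each host. In sgCtrl *SNHG5* was highest, at 52.4 to 58.1 FPKM, and *SNHG12* lowest, at 3.57 to 4.59 FPKM. *GAS5* (39.1 to 46.1), *SNHG8* (34.5 to 43.5) and *SNHG6* (33.8 to 41.7) came next after *SNHG5*, and neighbours in this order overlapped. *ZFAS1* (21.9 to 27.9) stood alone below them, *SNHG7* (14.5 to 18.1) and *SNHG1* (15.6 to 15.7) overlapped, and *SNHG16* (7.56 to 7.93) and *SNHG15* (4.74 to 5.95) followed without overlap.

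In sg*NF2*-1 the order was led by *SNHG5* (76.3 to 95.4 FPKM), *GAS5* (74.5 to 89.4) and *SNHG8* (67.4 to 78.0), each overlapping the next. *SNHG6*, which had overlapped *GAS5* and *SNHG8* in the control cells, now lay well below them at 33.0 to 44.8 FPKM. There it overlapped *ZFAS1* (35.2 to 41.4) and *SNHG1* (35.5 to 36.8). *SNHG7* (18.0 to 25.4) was below these, *SNHG16* (12.9 to 15.5) and *SNHG15* (12.7 to 15.8) overlapped, and *SNHG12* (8.58 to 9.49) remained lowest.

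**Figure D3:**
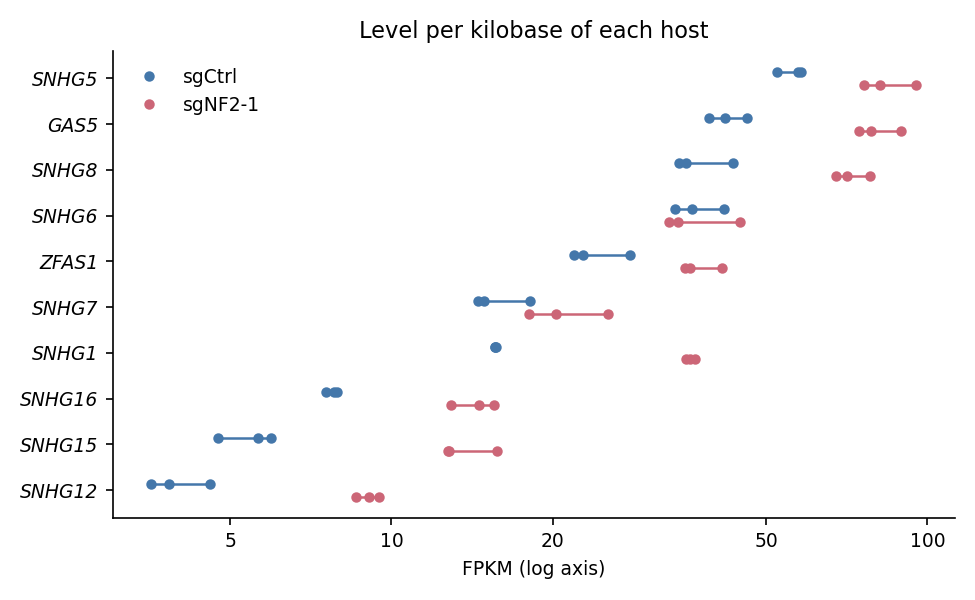
FPKM of each host in the 3 sgCtrl and 3 sg*NF2*-1 libraries on a log axis, ordered by the sgCtrl mean, with lines from the lowest to the highest library. *SNHG8* and *SNHG6* share a range in sgCtrl, and in sg*NF2*-1 *SNHG8* reaches 67.4 to 78.0 while *SNHG6* stays at 33.0 to 44.8.

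Each host was also set against the mean log2 level of the 9 others in the same library, which removes any shift they share. Each host is part of the reference of the others, so the differences of the 10 genes cancel out. Some hosts must therefore fall where others gain, and a fall on this scale is not a fall in level. The share of all tested genes without overlap was not computed on this scale. On this relative scale *SNHG6* went from -0.15 in sgCtrl to -1.06 in sg*NF2*-1, a difference of -0.91, and *SNHG7* fell by 0.44. *SNHG5* differed by -0.25 and *ZFAS1* by -0.19, and for these 4 genes every knockout library was below every control library. *SNHG15* (0.58), *SNHG1* (0.44) and *SNHG12* (0.41) gained on the others, with all knockout libraries above all control libraries. *GAS5*, *SNHG8* and *SNHG16* differed by 0.13, 0.14 and 0.08, with overlapping groups. The two-sided exact permutation p was 0.10 for the 7 genes without overlap, the smallest possible, and 0.143 after adjustment over the 10 genes, so none of these differences could pass 0.05 in this design.

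The increase was shared by the knockout libraries but was not equal in them. The mean of the hosts' log2 levels, centred on the sgCtrl mean, was 0.74, 0.76 and 0.97 in sg*NF2*-1 replicates 1, 2 and 3 and 0.08, -0.09 and 0.01 in the sgCtrl replicates. The third knockout library had the highest level of 8 of the 10 hosts, all but *SNHG1* and *SNHG16*. Without it, the same number of hosts, 9, passed edgeR's test as higher. The tested genes whose profile over the 6 libraries lay nearest to this host mean, among 8970 genes with at least 10 CPM on average, were *AHR*, *METTL27* and *TRMT1*. *AHR*, the aryl hydrocarbon receptor, had a log2 fold change of 0.81 and a root-mean-square distance of 0.041 on the log2 scale, and *TRMT1*, a transfer RNA methyltransferase, had 0.78 and 0.044. *METTL27*, a putative methyltransferase, had 0.82 and 0.043.

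The host loci differ in how far their reads can be assigned to them. Exon bases shared with other annotated genes made up 1.16% of *GAS5*, 2.49% of *SNHG5*, 3.65% of *SNHG15* and 9.54% of *SNHG12*, and 14.2% of *SNHG8* and 15.3% of *SNHG1*. They were 31.4% of *SNHG7*, 33.4% of *SNHG16*, 36.4% of *SNHG6* and 46.9% of *ZFAS1*. The annotation marks 19 of 29 *GAS5* transcripts, 13 of 25 *SNHG1* transcripts and 10 of 17 *SNHG12* transcripts as retaining an intron, so their counted exon bases include sequence that is intronic in other transcripts. Spliced and unspliced RNA therefore cannot be told apart in these counts. Whether counting used strand is not given in the sources used here, so reads of a host and of a gene on the opposite strand cannot be told apart where they overlap. How reads in exon bases shared between genes were counted is not given either, and such reads may be missing from the host counts. Inside the hosts, 22 snoRNA rows had no counts, and all 22 share bases with host exons. The 4 snoRNA rows with counts share none. Whether shared reads were left out of the host counts was not tested. If they were, the levels of *ZFAS1*, *SNHG6*, *SNHG16* and *SNHG7* would be understated most, also in the FPKM order.

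Tested genes that overlap a host or lie within 2000 bases of one numbered 7, all on the opposite strand. *SLC3A2*, the heavy chain of several amino acid transporters, starts 187 bases from *SNHG1* and was also higher, from 393 ± 29.1 to 656 ± 28.2 CPM (SD, n = 3), a log2 fold change of 0.74 (standard error 0.08, edgeR adjusted p = 1.73e-07). *ZBTB37*, which overlaps *GAS5* by 801 bases, was lower, with 13.98 ± 2.56 CPM in the controls and 9.40 ± 2.25 CPM in the knockout libraries (SD, n = 3) (log2 fold change -0.56, standard error 0.17, edgeR adjusted p = 0.011). Its groups overlapped, and the adjusted p was 0.090 without sgCtrl replicate 2 and 0.074 without sg*NF2*-1 replicate 3.

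*FAM69B*, which overlaps *SNHG7* by 2685 bases, had 2.56 ± 0.197 CPM in sgCtrl, and 3.91 ± 0.35 CPM in the knockout libraries (SD, n = 3), a log2 fold change of 0.61 (edgeR adjusted p = 0.049), and this call was lost in 10 of 12 alternative settings. The remaining 4 neighbours did not pass edgeR's test. *TRNAU1AP* at *SNHG12* had a log2 fold change of 0.27, *ZNFX1* at *ZFAS1* had 0.17, *PRSS12* at *SNHG8* had 0.59 and *MCMDC2* at *SNHG6* had -0.46 with 76 counts in all. Thus the neighbour and its host were both higher by the test at *SNHG1* and *SNHG7*, opposite at *GAS5*, and not both called at the other loci.

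**Figure D4:**
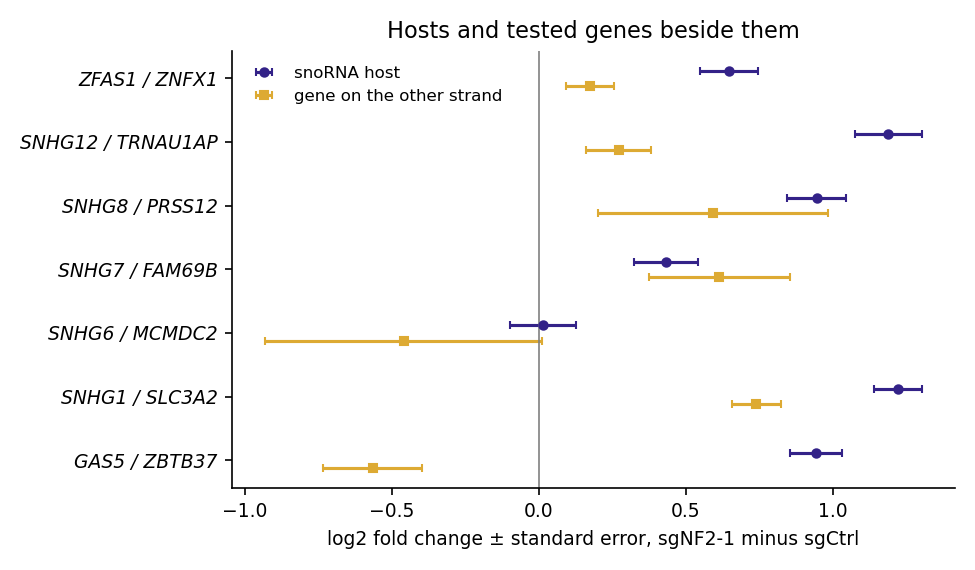
Log2 fold change with standard error of 7 hosts (circles) and of the tested gene overlapping or beside each of them on the opposite strand (squares). *SLC3A2* rises beside *SNHG1* (0.74 and 1.22), and *ZBTB37* is below 0 beside *GAS5* (-0.56 and 0.94).

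The snoRNAs themselves were barely counted in these libraries. Of 26 snoRNA rows inside the hosts, 22 were at 0 in all 6 libraries and the others summed to 69 counts (*SNORD12B* 18 and *SNORD12C* 25 in *ZFAS1*, *SNORD99* 19 in *SNHG12* and *SNORD1B* 7 in *SNHG16*). All 22 rows at 0 share bases with annotated exons of their host, and the 4 rows with counts share none, so the zeros go together with overlapping annotation. The table lists no separate snoRNA rows within *GAS5*. No snoRNA of these hosts passed the expression filter, and nothing follows from these rows about snoRNA levels.

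Other snoRNA hosts were higher less often than those described above. Of 21 further hosts, mostly noncoding, 16 were tested, and 8 were higher and 2 lower (50% and 12.5%, against 17.7% and 16.6% of all tested genes). Their median log2 fold change was 0.35. *EPB41L4A-AS1* rose by 1.26 and *SNHG17* by 1.08 on the log2 scale (edgeR adjusted p = 1.1e-09 and 3.0e-08). The lower members, named after their values were seen, were *SNHG18* (-1.02) and *SNHG14* (-1.004), with 6.29 and 4.89 CPM in sgCtrl. *SNHG3* had a log2 fold change of -0.13 and *DANCR* of 0.08, and neither passed the test (edgeR adjusted p = 0.34 and 0.72).

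Among 29 ribosomal protein and translation factor genes that carry snoRNAs, 18 were higher and 1 lower (62.1% and 3.45%, against 17.7% and 16.6% of all tested genes), with a median of 0.33. *EEF2*, the elongation factor that moves the ribosome along, rose by 0.68 and *RPL3*, a large subunit protein, by 0.59 on the log2 scale. The lower one was the initiation helicase *EIF4A2* (-0.23), named after its value was seen, and it passed in 7 of 12 alternative settings. Of 15 other protein-coding hosts, 7 were higher and 2 lower (46.7% and 13.3%, against the same 17.7% and 16.6%, median 0.23). *DKC1*, the pseudouridine synthase of H/ACA particles, rose by 0.73 and *NOP56*, a core protein of C/D particles, by 0.58, while *AP1G1* (-0.35) and *NAP1L4* (-0.22), named after their values were seen, fell. The call of *NAP1L4* passed in 6 of 12 alternative settings.

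Of 19 genes for proteins that form or assemble snoRNA particles, 11 were higher and 1 lower (57.9% and 5.26%, against 17.7% and 16.6% of all tested genes, median 0.25). Besides *DKC1*, the leading one was the assembly factor *NUFIP1* (0.59), and the lower one, named after its value was seen, was the *DKC1* chaperone *SHQ1* (-0.26), which passed in 5 of 12 alternative settings. Of 17 listed TOP messengers, with no *RPL* or *RPS* genes among them, 16 were tested. Of these, 10 were higher (62.5%) and 0 lower, against 17.7% and 16.6% of all tested genes, with a median of 0.32. The higher ones were led by *EEF2* and by *PABPC1*, the poly(A)-binding protein (0.57). Some genes stand in more than one of these lists.

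Of 23 nonsense-mediated decay and decapping factors, 6 were higher and 2 lower (26.1% and 8.70%, against 17.7% and 16.6% of all tested genes), and their median change was 0.13 on the log2 scale. Counting both directions, 34.8% of them were called, close to the 34.3% of all tested genes. The helicase *DHX34* (0.77) and the exon junction protein *CASC3* (0.62) had the largest changes. The helicase *UPF1*, which is central to the pathway, rose by 0.31 (edgeR adjusted p = 0.0036), and the kinase *SMG1*, which phosphorylates it, had 0.07 (edgeR adjusted p = 0.63). *DCP2* (-0.44), the decapping enzyme, and its helper *PNRC2* (-0.29) fell and were named after their values were seen. Of 14 coding genes whose messengers are known to be sensitive to this decay, 7 were higher (50%, against 17.7% of all tested genes) and 0 lower (median 0.34). The higher ones were the stress factors *ATF3* (2.33) and *ATF4* (0.56), the uridine phosphorylase *UPP1* (1.26), *DDIT3* (0.95), *GADD45B* (0.78), *GADD45A* (0.74) and *TBL2* (0.47). All but *ATF3*, *ATF4* and *UPP1* were named after their values were seen. So was *MAP3K14*, which did not pass (0.04, edgeR adjusted p = 0.82). Whether the higher ones rose through decay or through transcription was not tested. None of the 6 splicing regulators in this list passed edgeR's test, and they were named after their values were seen. Their log2 fold changes ran from -0.17 (*HNRNPDL*) to 0.20 (*SRSF3*, edgeR adjusted p = 0.059). Counts per gene sum all its transcripts, so a change confined to the transcripts sensitive to decay cannot be told from them.

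**Figure D5:**
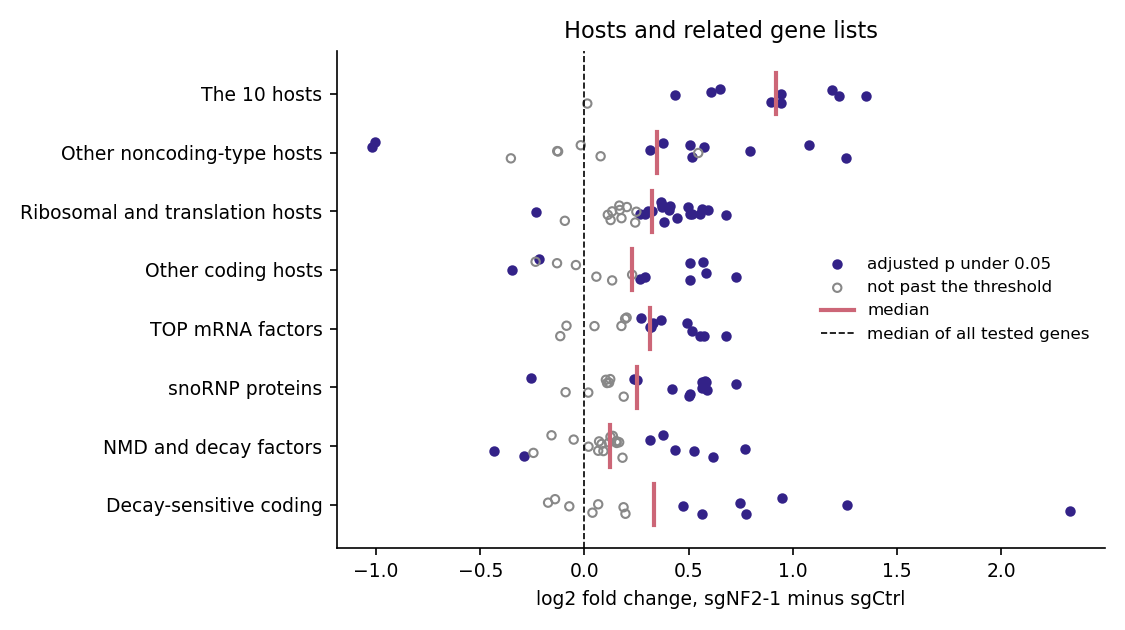
Log2 fold change of every tested gene (point) in the 10 hosts and in 7 related lists, filled where edgeR's adjusted p was under 0.05, with each list's median (red) and the median of all tested genes (dashed). The median of the 10 hosts is 0.92, and those of the related lists lie from 0.13 to 0.35.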

How the data were processed

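The authors extracted total RNA, prepared NEBNext Ultra libraries and sequenced paired-end reads on a NovaSeq platform. The submitters' processing notes name HISAT2, StringTie 1.3.3b, featureCounts 1.5.0-p3 and the build hg38. The authors deposited raw counts per gene and FPKM values, and the strand setting of counting is not given in the sources used here. All 58735 gene identifiers are in GENCODE release 29. Each FPKM equals the count divided by gene length and one depth per library, within 0.1% for every gene checked.

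The titles gave each library its group and replicate number. Counts were filtered with filterByExpr of edgeR 4.0.16 (minimum count 10, minimum total 15) in R 4.3.3, scaled by TMM and fitted by group for edgeR's quasi-likelihood test, with Benjamini-Hochberg adjustment over 14179 genes. FPKM values were tested as log2(FPKM + 1) with limma 3.58.1 for genes with a mean of at least 0.5, and differences on that scale understate changes of low genes. Single genes also had a two-sided exact permutation test. The methods do not state whether their p threshold of 0.05 was adjusted, and with the fold limit of 0.5 the unadjusted p was used. The members and gene lists were chosen with earlier results of these data known. Named genes are the 10 hosts, the 2 largest called changes with at least 1 CPM in each other list, *SNHG3*, *DANCR*, *UPF1*, *SMG1*, *ATF4*, every tested gene within 2000 bases of a host, *NF2* and the 3 nearest profiles. Others are said to be named after their values were seen. One marker of the blood and endothelial list is not reported here.

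For the counts, the alternatives were DESeq2 1.42.0, edgeR scaled by the DESeq2 size factors or by totals alone, dropping the filter or requiring 10 counts in each library, the replicate number as a block, leaving out single libraries, and the fold limit with the adjusted p. For FPKM they were 0.1 as pseudocount, an open filter, the same block and leaving out single libraries. On simulated counts for this comparison (13949 genes), edgeR recovered 60.4% of genes changed 1.5-fold and 79.6% of those changed 2-fold. On simulated FPKM values limma recovered 41.9% and 88.1%. In the edgeR step 193 genes were changed, against 4866 called in the data, so these rates are not the sensitivity of this comparison.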

Additional observations from a re-analysis of the deposited data

How the results depend on the processing

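The result of 9 hosts higher and 0 lower held in all 12 alternatives for the counts, and 8 passed limma's test in all 9 for FPKM. With the fold limit the number was 8, or 9 without sgCtrl replicate 1 or without sg*NF2*-1 replicate 1, when *SNHG7* reached 0.54. The estimates of the 9 called hosts kept their sign throughout. *SNHG6*, at 0.01, turned to -0.018 with library totals, and ranged from -0.13 to 0.10 with each library left out, with -0.01 without sgCtrl replicate 2, -0.05 without sgCtrl replicate 3 and -0.13 without sg*NF2*-1 replicate 3. Its FPKM difference of -0.00 ranged from -0.14 to 0.077 with each library left out, and turned to the upper value without sgCtrl replicate 1, to 0.075 without sg*NF2*-1 replicate 1 and to 0.050 without sg*NF2*-1 replicate 2. *DANCR* (-0.050 to 0.18) and *MCMDC2* (-0.77 to 0.087) also turned, both without sgCtrl replicate 1. None of these values passed a test, and the cause was not tested. The number of all genes called was 4866, and 3896 to 4785 with each library left out. Calls of ribosomal and translation hosts as higher ranged from 13 to 24 around 18, and those of TOP messengers from 7 to 12 around 10, while the lower call of *SHQ1* was lost in each of these fits. Same-numbered libraries of the groups did not deviate together (correlations -0.03, 0.06 and 0.05), so the numbers were not taken as pairs. A replicate block left 9 hosts higher and 5199 genes called in all, and changed the call of no host. *MCMDC2* had 76 counts in all, and depth limits what can be said of it.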

Other observations

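Over the whole table, 776 of 943 snoRNA rows were at 0 in all 6 libraries and 4 passed the expression filter, and 36 of 49 rows of the related Cajal body RNAs (scaRNAs) were at 0. Rows at 0 were thus the rule for snoRNAs in these libraries, inside the described hosts and elsewhere.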
